A study of Sesuvium portulacastrum with 18 samples.

Results

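The early salt response of roots was measured in Sesuvium portulacastrum, a halophyte, that is a plant that completes its life on saline ground. The comparison set 3 root libraries taken after 8 h in 250 mM NaCl against 3 root libraries taken at 0 h, 6 of the 18 libraries of the study. The 0 h plants were given fresh control medium and harvested at once. All plants had grown from stem cuttings in liquid medium and were 15 days old, and replicates were biological ones per the study's design. No plants kept without salt for 8 h entered the comparison, so salt, time since the change of medium and hour of harvest cannot be told apart. In whole roots, fewer cells of a type and less RNA per cell cannot be told apart either.

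A root in saline water meets a lower water potential and an inflow of sodium. Plants are known to answer within hours through abscisic acid signalling, ion transporters that move sodium out of the cytoplasm or into the vacuole, compatible solutes and water channels. Halophytes such as this succulent are known for storing sodium in vacuoles. The files do not pair transcript IDs with genes, so none of these roles could be assigned, the tissue label could not be checked against markers, and the response is described by size, direction, level and agreement among libraries.

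All transcripts with enough counts formed the set. Of 97620 listed root IDs, 84900 had a count in at least 1 of the 6 libraries, and 34721 passed the filter on low counts and were tested. These held between 98.9% and 99.1% of each library's counts. The libraries totalled 10107650 to 13506561 estimated counts at 0 h and 8773677 to 13861135 at 8 h. Levels are normalized CPM, that is counts scaled to library size (CPM) and divided by 1 further factor per library. A transcript rose or fell where edgeR's quasi-likelihood test gave an adjusted p under 0.05, and errors after ± are SDs of 3 libraries.

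After 8 h in NaCl a minority of root transcripts had changed, in similar numbers up and down. Of all tested transcripts 13.5% changed, 2247 up (6.47%) and 2426 down (6.99%). The transcripts that rose held 8.33%, 7.70% and 8.00% of all counts in the 0 h libraries and 13.1%, 15.6% and 15.9% in the 8 h libraries. Those that fell held 14.5%, 14.3% and 14.6% at 0 h and 7.90%, 7.78% and 7.84% at 8 h. At 8 h the falling set had an SD of 0.0596 percentage points and the rising set one of 1.52, with 8 h replicate 1 the lowest. As shares of the scaled library total these SDs were 0.348 and 1.03. The same contrast chose both sets, so their shares describe the change and do not test it. Without 8 h replicate 2 the test called 3081 transcripts in place of 4673. The rises then numbered 1531 and the falls 1550. Rises numbered 1452 without 0 h replicate 3, and falls 1611 without 8 h replicate 3.

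**Figure D1:**
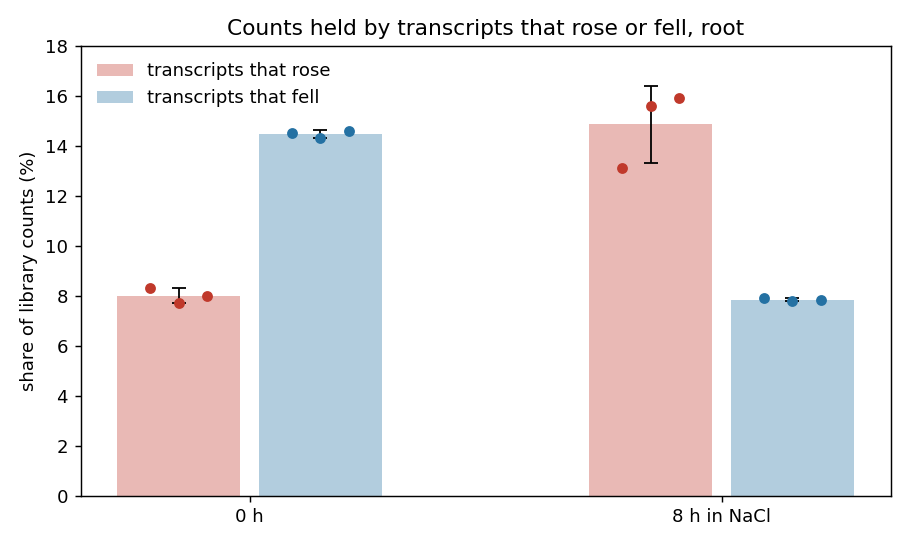
Share of each library's counts (%, y axis) held by the transcripts that rose (red) and fell (blue), at 0 h and 8 h. Points are the 3 libraries, bars their mean and error bars the SD; the falling set goes from 14.5% to 7.84% and the rising set from 8.01% to 14.9%.

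Summed over transcripts, the rises gained 67860 normalized CPM and the sum of the falls was -68138. Levels are scaled to a nearly fixed total over all transcripts, which ties gains to losses but does not by itself fix the balance among called ones. Tested transcripts that were not called held 76.6% of counts at 0 h and 76.4% at 8 h on average. With that share nearly constant, called gains and losses had to be close. The scaling also keeps the typical change near 0 (median log2 fold change of all tested transcripts 0.00462), so rises and falls are relative to it. The gain was spread over many transcripts: 122 of the 2247 made up 50% of it and 992 made up 90%. The loss had nearly the same form, with 132 of 2426 transcripts for 50% and 1025 for 90%. The 10 largest contributors held 17.4% of the gain and 17.8% of the loss.

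The distance between libraries was larger between times than within them, although the ends of the 2 ranges came close. Distance was taken as the percent of normalized counts that would have to move between transcripts to turn one library into another. It was 13.3% to 19.6% (median 14.6%) for the 9 pairs of a 0 h and an 8 h library. It was 7.64%, 7.82% and 12.9% within 0 h, and 7.93%, 9.05% and 12.3% within 8 h. The median of all pairs within a time was 8.49%. The widest pair within 0 h was replicates 1 and 2, and the widest within 8 h was replicates 1 and 3. Without the 100 most abundant transcripts the between-time pairs ran from 11.9% to 17.9% and the largest within-time pair was 11.8%. The biological coefficient of variation, the relative spread between libraries beyond counting, was 0.201 within 0 h and 0.186 within 8 h.

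The transcripts with the largest single changes in normalized CPM are named here, among called transcripts whose libraries did not overlap between times. That lack of overlap was a condition of being listed. The largest gain was that of R_Transcript_720.p3, with 4901, 6023 and 5498 normalized CPM in the 0 h libraries and 8632, 8820 and 8964 in the 8 h libraries. The mean went from 5474 ± 561 to 8805 ± 166. This is a 1.60-fold rise (log2 fold change 0.68, SE 0.14, edgeR adjusted p = 0.00748) of the transcript that ranked 6 by level at 0 h. It made up 4.91% of the whole gain.

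R_Transcript_33657.p2 gave the next gain, from 664, 831 and 689 normalized CPM at 0 h to 1967, 2515 and 2193 at 8 h. The mean tripled from 728 ± 90.2 to 2225 ± 275 (3.05-fold, log2 fold change 1.61, SE 0.13, edgeR adjusted p = 1.14e-05). It went from rank 96 to rank 12 by level.

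R_Transcript_12627.p1 gave the largest loss, from 3310, 3386 and 3552 normalized CPM at 0 h to 976, 1123 and 866 at 8 h. The mean of 3416 ± 124 gave way to 988 ± 129, a 3.46-fold fall (log2 fold change -1.79, SE 0.12, edgeR adjusted p = 4.29e-06). It had ranked 10 by level at 0 h and ranked 42 at 8 h. R_Transcript_97052.p1 went from 3870, 3242 and 3716 normalized CPM to 1333, 1546 and 1340. Its mean went from 3609 ± 327 to 1406 ± 121 (2.57-fold lower, log2 fold change -1.36, SE 0.12, edgeR adjusted p = 2.16e-05). The calls and directions of these 4 transcripts were kept under all 18 alternatives run for each.

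**Figure D2:**
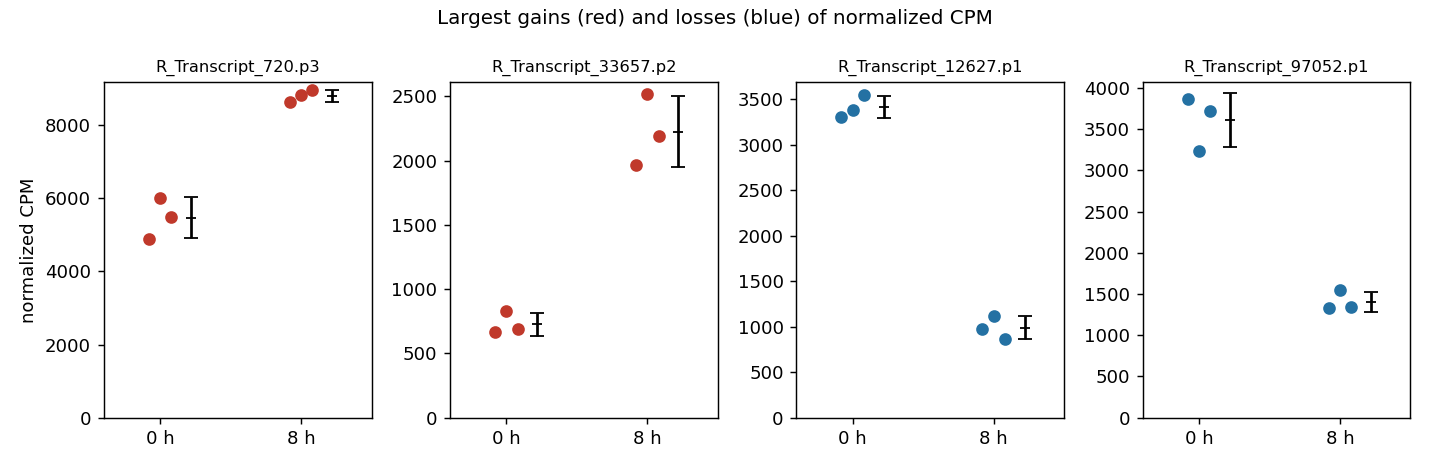
Normalized CPM (y axis) of the 2 transcripts with the largest gain (red) and the 2 with the largest loss (blue), at 0 h and 8 h in NaCl. Points are the 3 libraries in order of replicate, the mark and error bar beside them the mean and SD. Within each panel all 8 h points lie beyond all 0 h points, which was a condition of being named.

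The next 8 gains, given by rank without an ID, ran from 654 to 1362 normalized CPM. The third largest gain had 1030, 1303 and 1228 at 0 h and 2149, 2676 and 2823 at 8 h. The fifth stood out by the closeness of its 8 h libraries, with 1285, 1693 and 1472 at 0 h and 2359, 2352 and 2325 at 8 h. The eighth had the largest fold of the 10, from 145, 92.7 and 113 to 664, 854 and 1131 (7.52-fold). Of the 10 gains 7 were at least 2-fold, with log2 fold changes from 0.66 to 2.91.

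The next 8 losses ran from -713 to -1564 normalized CPM. The fifth largest loss had 1271, 1217 and 1374 at 0 h and 363, 363 and 352 at 8 h, with an SD of 6.62 around a mean of 359 at 8 h. The sixth was the deepest in fold, from 849, 955 and 1055 to 56.9, 55.8 and 78.9 (15.0-fold lower, log2 fold change -3.90, SE 0.26, edgeR adjusted p = 3.36e-06). It went from rank 60 by level to rank 3309. Of the 10 losses 9 were at least 2-fold.

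Most of the transcripts highest by level were not called, which also held for all tested transcripts, of which 13.5% changed. Of the 10 highest by mean over the 6 libraries, scaled as in the test, 1 rose, 1 fell and 8 did not pass the test. The riser was R_Transcript_720.p3, the largest gain named above, and the faller was the loss of rank 3. By the printed normalized CPM, R_Transcript_97052.p1, which also fell, stood marginally above that faller in mean level. The transcripts named above were chosen among called ones, so the contrast with them is set by that choice. The highest had 10263, 24118 and 15782 normalized CPM at 0 h and 35632, 16562 and 11399 at 8 h (log2 fold change 0.34, SE 0.41, edgeR adjusted p = 0.655). The next had 11974, 22992 and 16401 at 0 h and 26042, 15119 and 10231 at 8 h. In both, the groups overlapped and libraries of the same time differed widely.

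This spread was shared. In 7 of the 10, replicate 2 was the highest and replicate 1 the lowest at 0 h, and replicate 1 was the highest and replicate 3 the lowest at 8 h. The same order held in 7.76% of all tested transcripts. The 2 libraries where these transcripts were lowest, 0 h replicate 1 and 8 h replicate 3, were the deepest, with 13506561 and 13861135 counts. The 10 highest transcripts of each library, chosen library by library, took 6.04%, 10.3% and 7.86% at 0 h and 12.6%, 7.92% and 5.82% at 8 h of its counts. Without the 100 most abundant transcripts the distance went from 12.9% to 11.8% between 0 h replicates 1 and 2, and from 12.3% to 9.02% between 8 h replicates 1 and 3. The part of this spread in the calls was not tested. Among the 100 most abundant transcripts 11 rose and 16 fell, against 6.47% and 6.99% of all tested transcripts. Of these 100, 79 had a 95% interval of the change inside 2-fold either way.

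Most changes were of moderate size. The median rise had a log2 fold change of 1.00 (2.00-fold) and the median fall -1.07 (2.10-fold), and placing transcripts without counts in 1 group at their lower bound left both medians as they were. Of the rises 1122 were 2-fold or more (3.23% of tested), and of the falls 1314 (3.78%). Changes of 4-fold or more numbered 374 and 416, and of 8-fold or more 138 and 174. A stricter test, edgeR's glmTreat, asks whether a change exceeds 2-fold rather than whether it differs from 0. It called 697 transcripts (2.01%), 347 up and 350 down.

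At the far end falls outnumbered rises, but not among transcripts that had counts at both times. Of 16-fold or more there were 62 rises and 89 falls. Among transcripts counted at both times there were 49 and 43. No test of this difference was made. Called transcripts without any count at 0 h numbered 13, and those without any at 8 h numbered 46. A limit of 3 counts over a group's 3 libraries corresponds to 0.0905 CPM at 0 h and 0.0915 CPM at 8 h, for counting error only.

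Against that limit the 13 rises were at least 4.05-fold to at least 513-fold higher at 8 h. The highest of them had 0 counts in each 0 h library and 229, 458 and 835 counts at 8 h. The 46 falls were at least 11.2-fold to at least 89.3-fold lower. The highest of these had 122, 75 and 74 counts at 0 h and 0 in each 8 h library. Of the 46, 36 also had no counts in the 3 root libraries at 24 h, and of the 13, 2 had none. Those 36 and 2 could pass the filter on low counts only through the group where they were high. The lowest levels were 1.03 CPM at 0 h among the 46 and 0.366 CPM at 8 h among the 13. The smallest folds given here thus depend on the filter. Over all listed IDs, 1088 were counted in all 3 libraries at 0 h and in none at 8 h, against 430 the other way, while 61122 to 64556 IDs were detected per 8 h library and 62405 to 69091 per 0 h library.

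The 5 largest folds in each direction, among transcripts whose lower group averaged at least 10 counts, were not the abundant transcripts listed above. None of the 10 was among the 10 largest gains or the 10 largest losses of normalized CPM. The third largest rise was the most even, with 0.866, 0.949 and 0.888 normalized CPM at 0 h and 20.8, 20.6 and 20.6 at 8 h. The fourth went from 3.18, 4.53 and 3.55 to 63.5, 97.1 and 87.0. The fifth was uneven at 8 h, with 12.2, 20.3 and 46.8 against 1.08, 1.37 and 1.38 at 0 h.

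Among falls, the third largest had 66.2, 68.4 and 61.5 normalized CPM at 0 h and 3.19, 2.40 and 1.98 at 8 h (26.5-fold lower). The fifth had 118, 133 and 187 at 0 h and 12.1, 5.77 and 6.52 at 8 h (18.4-fold lower). All 10 of these calls were kept when any 1 of the 6 libraries was left out.

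**Figure D3:**
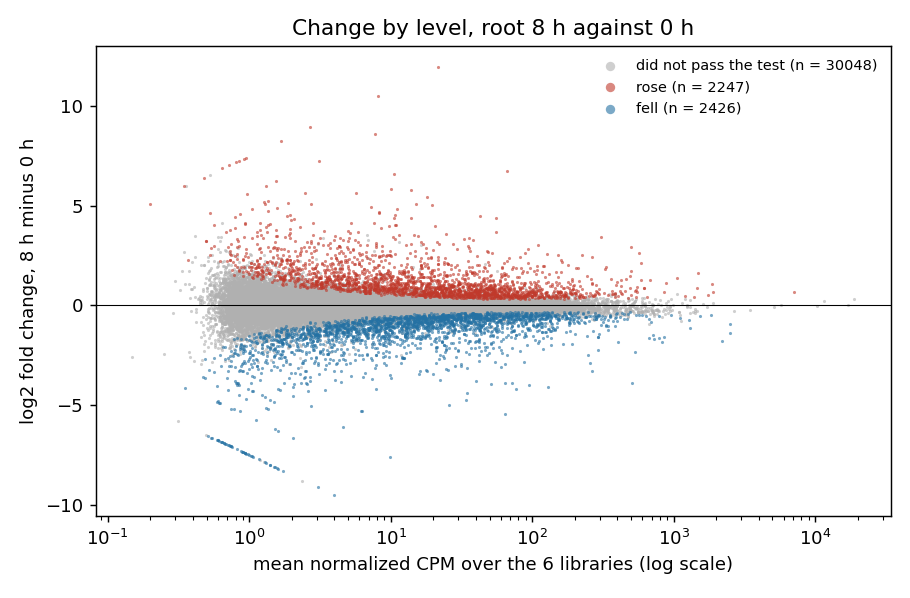
Log2 fold change, 8 h minus 0 h (y axis), against mean normalized CPM over the 6 libraries (x axis, log scale), 1 point per tested transcript. Red points rose (2247), blue points fell (2426) and grey points did not pass the test (30048); transcripts without counts in 1 group are included, and their fitted fold is no measure of size.

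The share of transcripts called was higher at high levels, where precision was higher too. Transcripts were divided into 10 level classes of equal number by mean normalized CPM over the 6 libraries. In the lowest class 1.93% rose and 3.37% fell, and in the highest 12.2% rose and 12.4% fell. The share called was 5.30% and 24.6% in these classes (exact 95% binomial intervals 4.58% to 6.10% and 23.2% to 26.1%, for counting only). The median standard error of the log2 fold change went from 0.56 in the lowest class to 0.12 in the highest. A small change could therefore pass only at high levels. Without 0 h replicate 3 the share called was 3.49% in the lowest class and 16.2% in the highest, and without 8 h replicate 3 it was 3.34% and 17.8%. Ranked by the 24 h libraries, 10.7% of the lowest class was called, against 5.59%, 5.79% and 7.95% of the next classes, and 23.0% of the highest. The 24 h libraries share the filter on low counts. A transcript low at 24 h was therefore tested largely through its counts at 0 h or 8 h, which favours called transcripts in that lowest class.

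The spread of log2 fold changes over all transcripts of a class, called or not, was 0.78 in the lowest and 0.34 in the highest (interquartile range, scaled to equal the SD of a normal distribution). Set against the median standard error this spread was 1.40 times as large in the lowest class and 2.77 times in the highest. At least 2-fold changes made up 100% of calls in the lowest class and 24.7% in the highest, a share that the larger standard errors at low levels set, since only large changes can pass there. As a share of all transcripts, called changes of at least 2-fold were 5.30% in the lowest class, 9.45% in the fifth and 6.08% in the highest. Ranked by the 24 h libraries they were 10.7% in the lowest class, 8.61% in the fifth and 5.10% in the highest. The filter favours called transcripts in that lowest class, so this ranking does not show where large changes were most frequent.

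**Figure D4:**
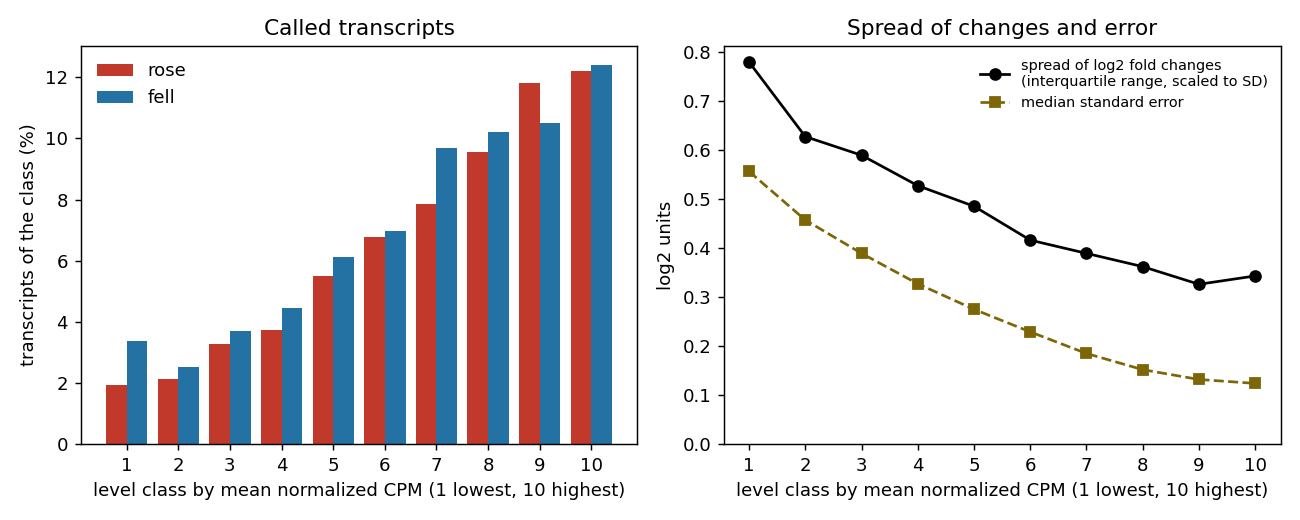
Left, percent of transcripts that rose (red) and fell (blue) in each of 10 classes of mean normalized CPM. Right, in log2 units, the spread of log2 fold changes of all transcripts in a class (circles) and their median standard error (squares); calls rise to 12.2% and 12.4% in the highest class while the spread goes from 0.78 to 0.34.

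Direction showed no steady trend with level, though falls outnumbered rises in every class but the ninth. In the highest class 424 rose and 431 fell, in the ninth 408 and 363, in the seventh 273 and 336 and in the lowest 67 and 117. The split depended on the ranking. Ranked by level at 0 h alone, 301 rose and 543 fell in the highest class, and ranked by level at 8 h alone 560 rose and 315 fell, since a group that sets the rank is favoured by its own high values. Ranked by the 24 h libraries, 361 rose and 439 fell.

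Transcripts that did not pass the test were not thereby shown to be unchanged. Of the 30048 that did not pass, 17272 (57.5%) had a 95% interval inside 2-fold either way. The interval of the other 12776 reached beyond 2-fold, and 1581 had an estimate of at least 2-fold. The share of tested transcripts bounded inside 2-fold was 1.21% in the lowest class and 87.1% in the highest. Of the called transcripts 1146 also had their interval inside 2-fold, so these changed by a small amount.

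Agreement among libraries was close for the called transcripts. The 8 h libraries lay wholly above the 0 h libraries for 2225 of the 2247 rises and wholly below for 2410 of the 2426 falls. Over all tested transcripts 30.4% had libraries that did not overlap. The same contrast made the calls, so this agreement describes them only. The nearest libraries of the 2 times were at least 2-fold apart for 498 rises (22.4% of those without overlap) and 547 falls (22.7%).

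A library that had no part in a call gives a freer view of it. Each of the 6 libraries was left out in turn, transcripts were called from the rest, and the library left out was then set against the other time. Between 96.7% and 99.7% of rises, and between 97.1% and 99.6% of falls, went the same way in the library left out. For all tested transcripts, called or not, 69.8% to 78.6% did. The library left out lay beyond all 3 of the other time for 90.6% to 98.8% of rises and 91.7% to 98.4% of falls. The 3 libraries of the other time, and the scaling, are shared between call and check.

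The libraries differed in how large the change was. In 8 h replicate 1 the median log2 difference was 0.73 for rises that the other libraries put at 1.07, and -0.76 for falls that they put at -1.22. In 8 h replicate 2 the rises stood at 1.12 against 1.18 and the falls at -1.12 against -1.23. Leaving out 0 h replicate 1 gave 0.76 against 1.04 for rises and -0.79 against -1.05 for falls. The values in the left-out library carry a pseudocount of 0.5 normalized CPM and the fitted ones do not. Thus 8 h replicate 1 and 0 h replicate 1 showed the smallest differences. Of these, 8 h replicate 1 was the library with fewest counts (8773677), while 0 h replicate 1 had the most at its time (13506561).

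**Figure D5:**
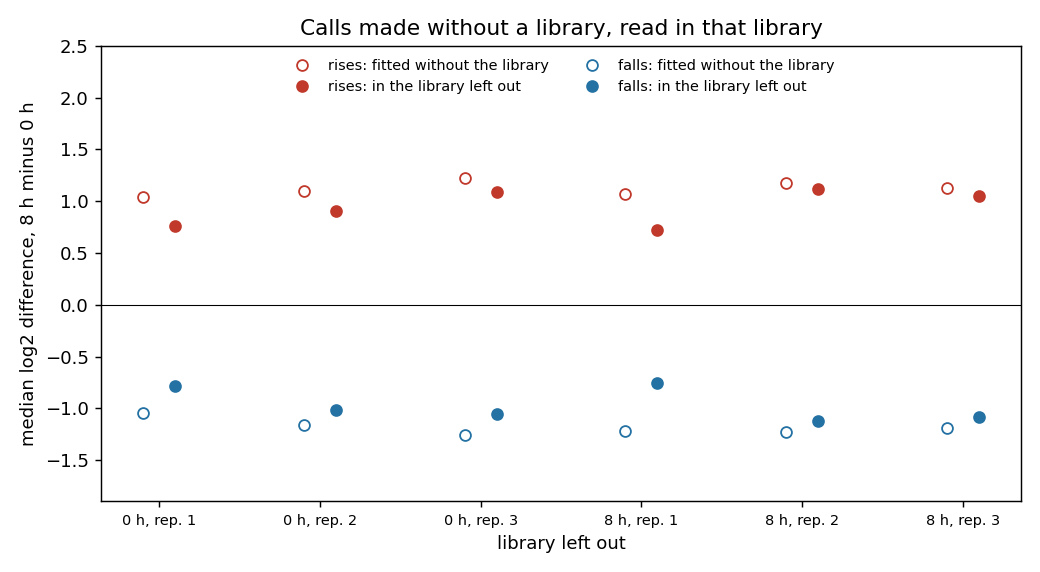
Median log2 difference, 8 h minus 0 h (y axis), of transcripts called without 1 library, for each library left out (x axis). Open circles are the fitted values from the remaining libraries and filled circles the values seen with the left-out library; red are rises, blue falls. All filled circles lie on the same side of 0 as the open ones, and those of 0 h and 8 h replicate 1 lie nearest to 0.

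The number of calls depended on single libraries. Of the 4673 calls 2512 (53.8%), 1242 up and 1270 down, were made in all 6 fits that left out 1 of the compared libraries. Another 111 were made in none of them. No called transcript changed the sign of its fold change in any of these fits, which the lack of overlap between the groups fixes for nearly all calls. Leaving out 8 h replicate 2 kept 2987 of the calls (63.9%), and leaving out 8 h replicate 1 kept 3926 (84.0%). Each such fit has fewer libraries and so less power.

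Larger changes were kept more often. All 6 fits kept 37.7% of calls under 2-fold, 62.6% of those from 2-fold to 4-fold, 77.3% of those from 4-fold to 16-fold and 95.4% of the 151 beyond. The transcripts kept in all 6 fits had a median size of 1.28 on the log2 scale, against 0.77 for the other calls. They held 4.78 ± 0.102% of counts at 0 h and 10.1 ± 1.10% at 8 h where they rose, and 8.97 ± 0.187% and 4.13 ± 0.0233% where they fell.

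Some IDs come from 1 assembled transcript and are not separate evidence. Among tested IDs 2271 shared their transcript number with another and differed only in the suffix. These formed 1366 pairs, of which 868 (63.5%) had fold changes of the same sign. In 28 pairs both IDs were called, all 28 in the same direction. In 140 pairs 1 of the 2 IDs was called. Of 4790 pairs of IDs with consecutive numbers 61.3% had the same sign, and 207 of the 234 with both called went the same way. The sources used here do not say what consecutive numbers mean in this assembly. Where assembled transcripts are nearly alike their reads may be divided, so the level of a single ID may be part of a gene's level. The called IDs belonged to 4646 different transcript numbers.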

How the data were processed

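RNA was sequenced from 9 root libraries, 3 each at 0 h, 8 h and 24 h, with a kit that marks the strand, per the labels' protocols. The authors deposited estimated counts per transcript as whole numbers; Trimmomatic, kallisto 0.45 and edgeR 3.40.1 are named in the submitters' processing notes without roles. Assembly, reference and counting strand are not given in the sources used here. Rounding altered 0 values. The deposited normalized signal (CPM over a TMM factor) equalled edgeR's own value from the counts to within 4.37e-11.

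Tests used R 4.3.3 and edgeR 4.0.16: filterByExpr (minimum count 10), TMM scaling, and 1 quasi-likelihood fit (glmQLFit, glmQLFTest, glmTreat) of all 9 libraries, contrast 8 h minus 0 h, Benjamini-Hochberg over all tested transcripts. A standard error is the fold change over the square root of F. The 24 h libraries enter the filter, the scaling and the estimate of spread, so 1 tested transcript had no counts in the 6 libraries compared. DESeq2 1.42.0 and limma 3.58.1 (voom) were alternatives. The edgeR fit was tested on simulated data with its own estimate of spread and far fewer changed transcripts than called here. That test does not vouch for the number of calls. Columns left over numbered 0. Replicate pairs differed by more than sampling noise (chi-square per transcript 6.91 to 21.5). Counting limits cover counting error only.

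Named transcripts were the 2 largest gains and 2 largest losses of mean normalized CPM among called transcripts without overlap; the next 8 each, and 5 largest folds each way, are given by rank. The transcripts, rules and tests were chosen with earlier results of these data known. Gene lists and tissue markers could not be used, because the files do not pair IDs with names.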

Additional observations from a re-analysis of the deposited data

How the results depend on the processing

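The 4673 changes, and their split into 48.1% up, kept their size within 1.5 times under DESeq2 size factors, library size alone, upper-quartile factors, DESeq2, limma-voom, a fit of 6 libraries and IDs summed by number (4098 to 4909 changed, 47.0% to 50.7% up). Among adjusted p under 0.01, 2474 changed, 1223 up and 1251 down, with 857 down at least 2-fold. Without the filter on low counts 2164 fell at least 2-fold and 1332 exceeded 2-fold by glmTreat, over 87369 tested. Leaving out 1 of the 9 root libraries gave 3081 to 4712 changed, 1452 to 2239 up and 1550 to 2485 down. Leaving out 1 of the 6 libraries of 0 h and 8 h, the share called was 16.2% to 27.1% in the highest level class and 3.34% to 5.01% in the lowest. In the left-out library, transcripts that rose held 5.17% to 9.02% of counts at 0 h and 11.9% to 12.7% at 8 h, and those that fell 10.6% to 15.6% and 4.87% to 7.67%. As a share of the scaled total the falls held 14.7% at 0 h. Ranked at 24 h, 23.0% of the highest and 10.7% of the lowest level class were called, and 45.1% of calls in the former rose. Rankings by 0 h or 8 h alone, chosen after seeing the data, gave 8.78% and 10.7% called in the lowest level class, and 35.7% and 64.0% rising in the highest; a group that sets the rank favours its own high values by construction. In each ranking by a single time, a transcript low at that time passed the filter largely through the other times, which favours calls in the lowest level class. The cause of the other shifts was not tested, beyond fewer libraries or a stricter threshold.

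No pairing of libraries by replicate number was established, and 3 libraries per time are too few to exclude it. Deviations from the group means of 0 h and 8 h libraries with the same number correlated at -0.119 to 0.159. Those with other numbers correlated at -0.291 to 0.263, the highest between 0 h replicate 1 and 8 h replicate 3. With the replicate block 4865 transcripts changed, 2331 up and 2534 down, against 4673 without it. The adjusted p of the named transcripts stayed under 0.05 in all alternatives, the highest being 0.0419 for R_Transcript_720.p3 without 0 h replicate 3.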
